A study of Mus musculus with 4 samples.

Results

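Claudins are the membrane proteins that form the strands of the tight junction, and 9 of them, Cldn2, Cldn3, Cldn4, Cldn6, Cldn7, Cldn8, Cldn12, Cldn15 and Cldn23, were followed here by library and by cell state. They were chosen by name, with earlier results of these data known. They are 9 of 25289 gene columns and 9 of the 31 columns that carry a claudin symbol. All 9 had at least 1 count, and 8 passed the filter on low counts when the cells of each library were summed, with Cldn8 below it. Single-cell RNA profiles came from the small intestinal epithelium of adult C57BL/6J mice, made with the inDrop droplet method after sorting for cells positive for the epithelial surface protein EpCAM and negative for CD45, TER119 and the dead-cell dye DAPI. The 2 control libraries came from Lats1fl/fl Lats2fl/fl mice, and the 2 Lats-deleted libraries from Lrig1-CreERT2 Lats1fl/fl Lats2fl/fl mice. Tamoxifen, 2 mg by intraperitoneal injection, was given to both genotypes, and tissue was collected on day 7. Lats1 and Lats2 are the kinases that restrain the coactivators YAP and TAZ in the Hippo pathway. In the Cre mice the floxed alleles are carried by every cell, and the recombinase is driven by Lrig1, which marks cells of the crypt base, so cells formed before the injection need not have lost the kinases. The labels do not say whether the 2 libraries of a group came from separate mice, so the p-values measure only the spread between these libraries, which may be technical.

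A tight junction seals the space between neighbouring epithelial cells near their apical edge, and the mix of claudins in its strands sets which ions and how much water pass between the cells. Cldn2 and Cldn15 are the classical channel-forming claudins of the gut, passing small cations such as sodium, and the sodium that leaks back through them is used for nutrient uptake. Cldn3, Cldn4, Cldn7 and Cldn8 are usually grouped with the sealing claudins. Cldn6 is known from embryonic epithelia, and Cldn12 is an atypical member that has been linked to calcium passage. In the intestine, Cldn2 is known as a crypt claudin, and Cldn18 belongs to the stomach.

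Of 30131 barcodes, 3304 were kept as cells, 774 and 515 in the controls and 726 and 1289 in the Lats-deleted libraries. The median counts per kept cell were 1708 and 1995 in the controls against 3716 and 3848 in the Lats-deleted libraries, and 4 to 12 cell barcodes were shared between any 2 libraries. CPM gives the counts of a gene relative to a total. For single genes over whole libraries or classes, this total covers the genes past the low-count filter and is scaled by TMM. For clusters, cells grouped by cluster name, marker sums and barcodes not kept, it is the plain total of all counts. The same cells can therefore have a different CPM as a class and as clusters. Lats1 stood at 23.4 and 35.2 CPM in the controls and at 6.93 and 9.26 with Lats deleted (log2 fold change -1.83, adjusted p = 0.0087, edgeR quasi-likelihood test, Benjamini-Hochberg). Lats2, by contrast, was higher, at 9.20 and 10.5 against 27.2 and 20.1 (1.26, adjusted p = 0.0305, same test). Whether the counted reads lie in the deleted exons is not given in the sources used here, so neither value checks the deletion by itself. The 17 clusters, built without claudin or other junction genes, were largely separate between genotypes. Markers of enterocytes summed to 26134 and 26198 CPM in the controls against 1540 and 731 CPM after deletion. Lats-deleted 2 stood apart: its stomach marker genes summed to 9544 CPM against 31.7 to 91.8 in the other libraries, and 334 of its 1289 cells were in clusters named stomach-like. Stromal markers summed to 1359 CPM in Lats-deleted 1 and 149 in Lats-deleted 2, against 33.7 and 23.6 in the controls. The fits of Cldn2, Cldn3 and Cldn15 over all kept cells are given with and without the stomach-like and stromal-like clusters. Xist, transcribed from the inactive X chromosome of females, stood at 10.6 and 7.03 CPM in the controls against 585 and 478 CPM, and 4 Y-linked genes summed to 106 and 117 CPM against 31.8 and 24.0 CPM. Genotype and the sex of the mice cannot be told apart, and Cldn2 is the only member on a sex chromosome.

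Summed over all kept cells, Cldn4 and Cldn23 rose and Cldn15 fell in the Lats-deleted libraries, and Cldn2, Cldn3, Cldn7 and Cldn12 did not pass the test. Cldn6 also had an adjusted p under 0.05, but it passed the filter on low counts through the Lats-deleted libraries alone, so it had to differ and is given below by its counts. With Cldn6 there were 4 calls among 8 members tested, and without it 3 among 7, beside 30.8% of all 12561 genes tested. Higher calls made up 15.3% of all genes and lower calls 15.5%. The groups did not overlap for any of the 8 members tested, as for 68.8% of all genes tested.

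**Figure D1:**
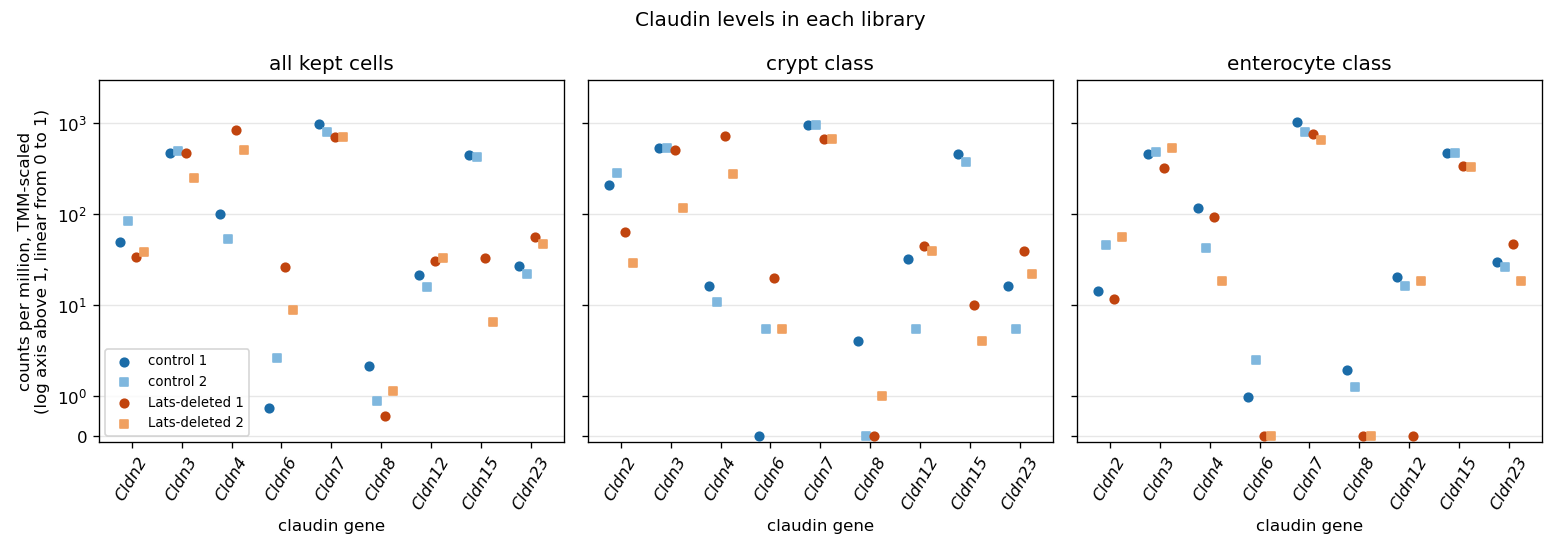
Level of each claudin in each library, as TMM-scaled CPM on a logarithmic axis that is linear from 0 to 1, over all kept cells (left), the crypt class (middle) and the enterocyte class (right). Circles are replicate 1 and squares replicate 2, blue for control and orange for Lats-deleted. Over all kept cells Cldn15 lies at 453 and 423 CPM in the controls and at 32.6 and 6.5 CPM for Lats deletion, whereas in the enterocyte class all 4 libraries lie between 335 and 474 CPM.

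Among the channel-forming members, Cldn15 (chromosome 5, 136966616 to 136975858, plus strand, GRCm38) stood at 453 CPM in control 1, 423 in control 2, 32.6 in Lats-deleted 1 and 6.5 in Lats-deleted 2. Both Lats-deleted libraries were far under both controls, and they differed from each other by several times. The fitted log2 fold change was -4.52 ± 0.69 (SE, n = 2 against 2, adjusted p = 0.00382, edgeR quasi-likelihood test). With the stomach-like and stromal-like clusters left out it was -5.48 ± 0.31 (adjusted p = 4.54e-05, same test). Without control replicate 1 the adjusted p was 0.0503, at a log2 fold change of -4.42. In this and every other fit that leaves out a library, the lone library of its group is assumed to vary like the 2 of the other group. Cldn2 (chromosome X, 139800828 to 139811386, plus strand) stood at 48.8 CPM in control 1 and 83.5 in control 2, and at 33.9 in Lats-deleted 1 and 38.8 in Lats-deleted 2. The control values lay above the Lats-deleted ones but differed between themselves by more than the gap to the other group (log2 fold change -0.85 ± 0.30, adjusted p = 0.0694, edgeR quasi-likelihood test). Cldn2 passed under 5 of 12 alternatives, over which its log2 fold change ran from -1.23 to -0.40 and its adjusted p from 0.000725 to 0.472. The highest p and smallest difference came without control replicate 2, DESeq2 gave an adjusted p of 0.108, and with the stomach-like and stromal-like clusters left out the difference was -1.03 with an adjusted p of 0.0318 (edgeR).

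Among the sealing members, Cldn4 (chromosome 5, 134945119 to 134946934, minus strand) rose from 99.8 and 53.6 CPM in the controls to 848 CPM in Lats-deleted 1 and 509 CPM in Lats-deleted 2. Every Lats-deleted value was above every control value, and the log2 fold change was 3.14 ± 0.40 (SE, n = 2 against 2; adjusted p = 0.00192, edgeR quasi-likelihood test). Cldn4 was called under all 12 alternatives, with log2 fold changes between 2.72 and 3.70. Cldn3 lies 39279 bases away on the same chromosome (134986214 to 134987472, plus strand) and stood at 476, 496, 467 and 249 CPM in control 1, control 2, Lats-deleted 1 and Lats-deleted 2. Lats-deleted 1 was close to the controls and Lats-deleted 2 was low (log2 fold change -0.44 ± 0.32, adjusted p = 0.342), and the difference was -0.97 without Lats-deleted replicate 1 and -0.076 without Lats-deleted replicate 2, fits in which the 2 controls alone give the spread. With the stomach-like and stromal-like clusters left out the difference was -0.24 ± 0.25 (adjusted p = 0.504, edgeR quasi-likelihood test). An exon of Cldn3 overlaps the antisense gene Wbscr25, and the strand setting of the counting is not given in the sources used here. Part of the Cldn3 counts may therefore belong to that gene. Cldn7 (chromosome 11, 69964779 to 69967885, plus strand) stood at 993, 807, 712 and 703 CPM, a log2 difference of -0.35 ± 0.23 with an adjusted p of 0.288 (edgeR quasi-likelihood test). Cldn8 (chromosome 16, 88560828 to 88563183, minus strand) had 3, 1, 2 and 7 counts in the same order of libraries and was too low to test.

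Cldn6 (chromosome 17, 23679249 to 23682446, plus strand) had 1 and 3 counts in the controls and 102 and 54 in the Lats-deleted libraries, or 0.71, 2.64, 26.2 and 8.77 CPM. The ratio of Lats-deleted to control counts, relative to library totals, was 9.89 (95% interval 3.79 to 36.8, counting error only). The adjusted p of its fit is not read as support, and it was above 0.05 without either control library. Cldn23 (chromosome 8, 35824712 to 35826559, minus strand) stood at 26.9 and 22.0 CPM in control cells and rose to 55.4 and 46.9 CPM after deletion (log2 fold change 1.06 ± 0.25, adjusted p = 0.0202). Its call was lost by DESeq2 (1.04, adjusted p = 0.0545), and in edgeR with cells thinned to 1000 counts (0.96, adjusted p = 0.0562), without control replicate 1 (1.26, adjusted p = 0.105) and without control replicate 2 (0.94, adjusted p = 0.162), with the fold change close to the main value each time. Cldn12 (chromosome 5, 5489537 to 5514958, minus strand) stood at 21.2 and 15.8 CPM against 30.5 and 33.3 CPM, a log2 difference of 0.77 ± 0.28 with an adjusted p of 0.0776 (edgeR quasi-likelihood test).

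The other 22 claudin columns each held at least 1 count, and 20 of them stayed under 20 CPM in all 4 libraries, the highest being Cldn10 at 4.62 CPM. Cldn18 (chromosome 9, 99689461 to 99717267, minus strand) stood at 4.96, 3.52 and 4.36 CPM in control 1, control 2 and Lats-deleted 1 and at 786 CPM in Lats-deleted 2. It was high in that library alone, so a difference by genotype and a difference of that library cannot be told apart. Cldn34c1 stood at 21.2 and 18.5 CPM in the controls against 11.5 and 8.93 CPM (log2 difference -0.97, adjusted p = 0.0622, edgeR quasi-likelihood test).

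Shares of cells with a count were compared after thinning every kept cell to 1000 counts, since depth differed between libraries. Cldn4 was seen in 4.01% and 3.30% of control cells (95% Clopper-Pearson intervals 2.74 to 5.64 and 1.93 to 5.23) and in 41.5% and 29.5% of Lats-deleted cells (37.9 to 45.1 and 27.0 to 32.0). Before thinning the same shares were 6.59%, 6.41%, 67.9% and 48.9%. Cldn15 was seen in 29.2% and 28.2% of control cells and in 4.13% and 0.62% of Lats-deleted cells. The library ranges did not overlap for 7 of the 9 members, against 47.6% of all genes with a count, and the exact two-sided permutation test over the 6 ways to split 4 libraries cannot go below p = 0.333, which those 7 members had. Cldn3, at 30.5%, 33.0%, 36.4% and 19.9%, and Cldn8 overlapped.

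The clusters place these changes in cells. Cluster names come from marker lists, and a number keeps clusters of the same name apart. CPM by cluster is relative to all counts of the cells named, without TMM.

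**Figure D2:**
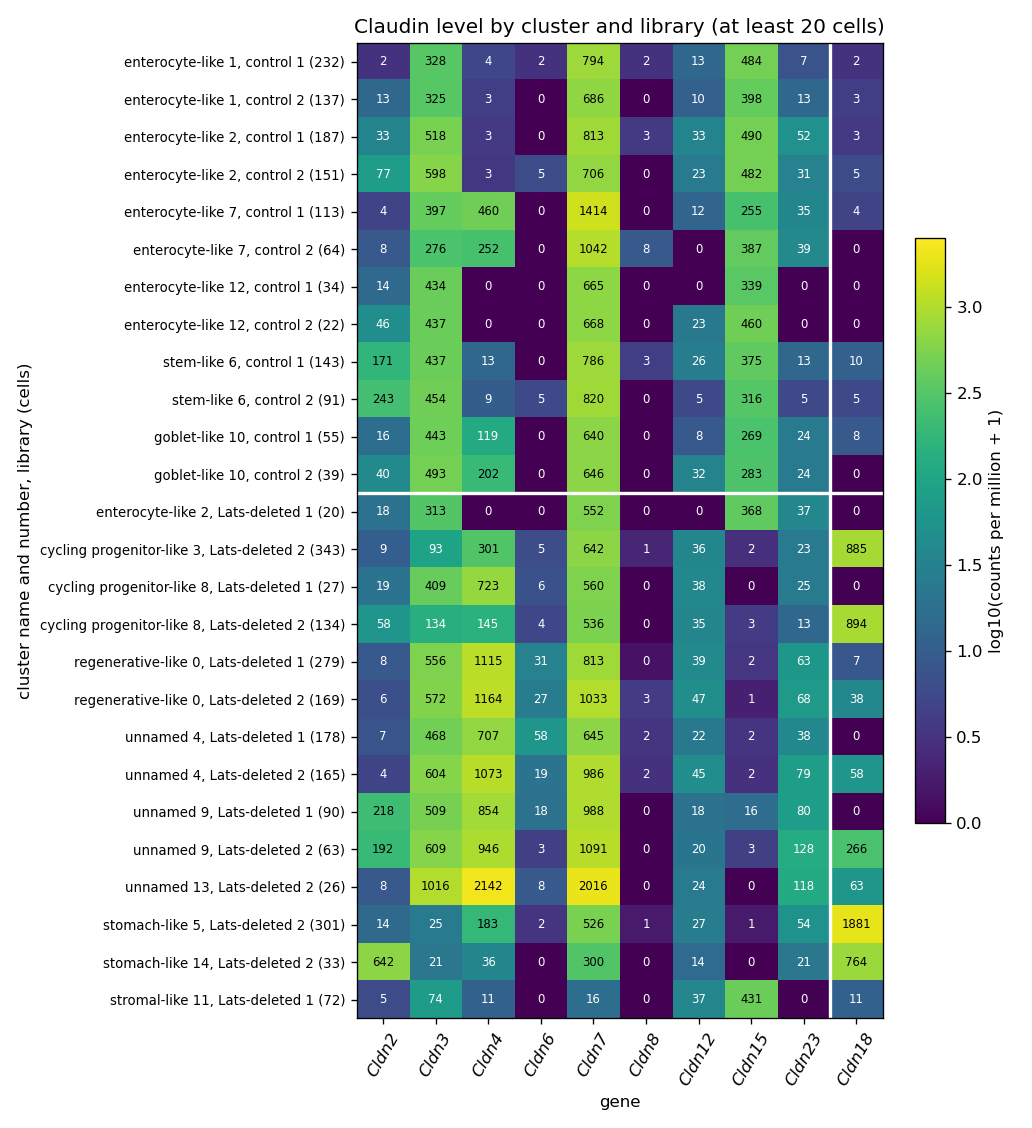
CPM of each claudin, relative to all counts of the sum and without TMM, in every cluster and library sum of at least 20 cells. Cldn18 is set apart on the right. Colour is log10(CPM + 1), the printed numbers are CPM, the number of cells is in brackets, and the white horizontal line separates control sums (above) from Lats-deleted sums (below). Cldn15 is at 255 to 490 CPM in all 12 control sums and at 16 CPM or less in 12 of the 14 Lats-deleted sums, the exceptions being an enterocyte-like sum and the stromal-like sum.

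Cldn15 was present in each control state with at least 20 cells. It ran from 255 CPM in the Apoa4-high enterocyte-like cluster 7 of control 1 to 490 CPM in the enterocyte-like cluster 2 of the same library, with 375 and 316 CPM in the stem-like cluster 6 and 269 and 283 CPM in the goblet-like cluster 10. In the regenerative-like cluster 0 (cells rich in Plat, Tgfb2 and Serpinb9b) it was at 2.44 CPM in Lats-deleted 1 and 0.96 CPM in Lats-deleted 2, from 5 and 1 counts. The barcodes not kept as cells held Cldn15 at 304 and 323 CPM in the controls. The control cells outside the enterocyte-like, stem-like and goblet-like clusters were 10 and 11 in number and held 0 and 1 Cldn15 counts, and the 0 allows up to 158 CPM. The part of free RNA in the control values was not tested.

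Most Cldn15 counts that remained in the Lats-deleted libraries lay in few cells. In Lats-deleted 1, 82 of 127 counts (64.6%) came from the 72 stromal-like cells of cluster 11, at 431 CPM, and 29 (22.8%) from its 36 enterocyte-like cells, at 317 CPM. In Lats-deleted 2, 18 of 40 counts (45%) came from 21 enterocyte-like cells, at 327 CPM. All cells outside the enterocyte-like, goblet-like, stem-like and stromal-like clusters gave 3.99 and 1.58 CPM. After thinning, 25.0% of the stromal-like cells of Lats-deleted 1 held a Cldn15 count (15.5 to 36.6), against 0.36% of its regenerative-like cells.

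Apart from Cldn12, the other claudins of the 72 stromal-like cells of Lats-deleted 1 were at low levels. Cldn7, at 552 to 988 CPM in the other sums of Lats-deleted 1, was at 15.8 CPM there from 3 counts. Cldn12 was not low there, at 36.8 CPM from 7 counts. Cells of that library outside the enterocyte-like, stem-like, goblet-like and stromal-like clusters had 33.8 CPM of Cldn12. In the stromal-like cells Cldn4 was at 10.5 CPM from 2 counts and Cldn3 at 73.6 CPM. Cldn6 and Cldn23 had 0 counts in them, which at this depth allows up to 15.8 CPM. Their leading stromal gene, Dcn, stood at 12915 CPM, and 4 genes looked up after these values were seen, Wt1 at 294 CPM, Upk3b at 1104, Lrrn4 at 768 and Msln at 1588, are ones known from the mesothelium. Wt1, Upk3b and Lrrn4 were at 2.7 to 4.4 CPM in the other cells of the same library, whereas Msln was at 2509. Krt19, a keratin of simple epithelia, stood at 568 CPM in them, with a count in 42 of the 72 cells, against 4142 CPM in the other cells of that library and 647 and 757 CPM in the controls. These cells had passed a sort for EpCAM, whose own gene was not analysed here.

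Cldn4 had a narrow place in the controls. It stood at 460 and 252 CPM in enterocyte-like cluster 7, the cluster led by Ada and Apoa4, and at 119 and 202 CPM in the goblet-like cluster, and at 13.2 CPM or less in the other control sums. Cluster 7 alone held 117 of the 141 Cldn4 counts of control 1 and 32 of the 61 of control 2. In the Lats-deleted libraries it stood at 1115 and 1164 CPM in the regenerative-like cluster 0, at 707 and 1073 CPM in the unnamed cluster 4 (Ly6c1, Cdkn2a, Ly6a), and at 854 and 946 CPM in the unnamed cluster 9 (Wfdc18, Duox2, Gpx2). Its highest sum was 2142 CPM in the unnamed cluster 13 (Clca4a, Reg3b, Krt20) of Lats-deleted 2. In the same library it was at 183 CPM in the stomach-like cluster 5 and 35.7 CPM in the stomach-like cluster 14.

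**Figure D3:**
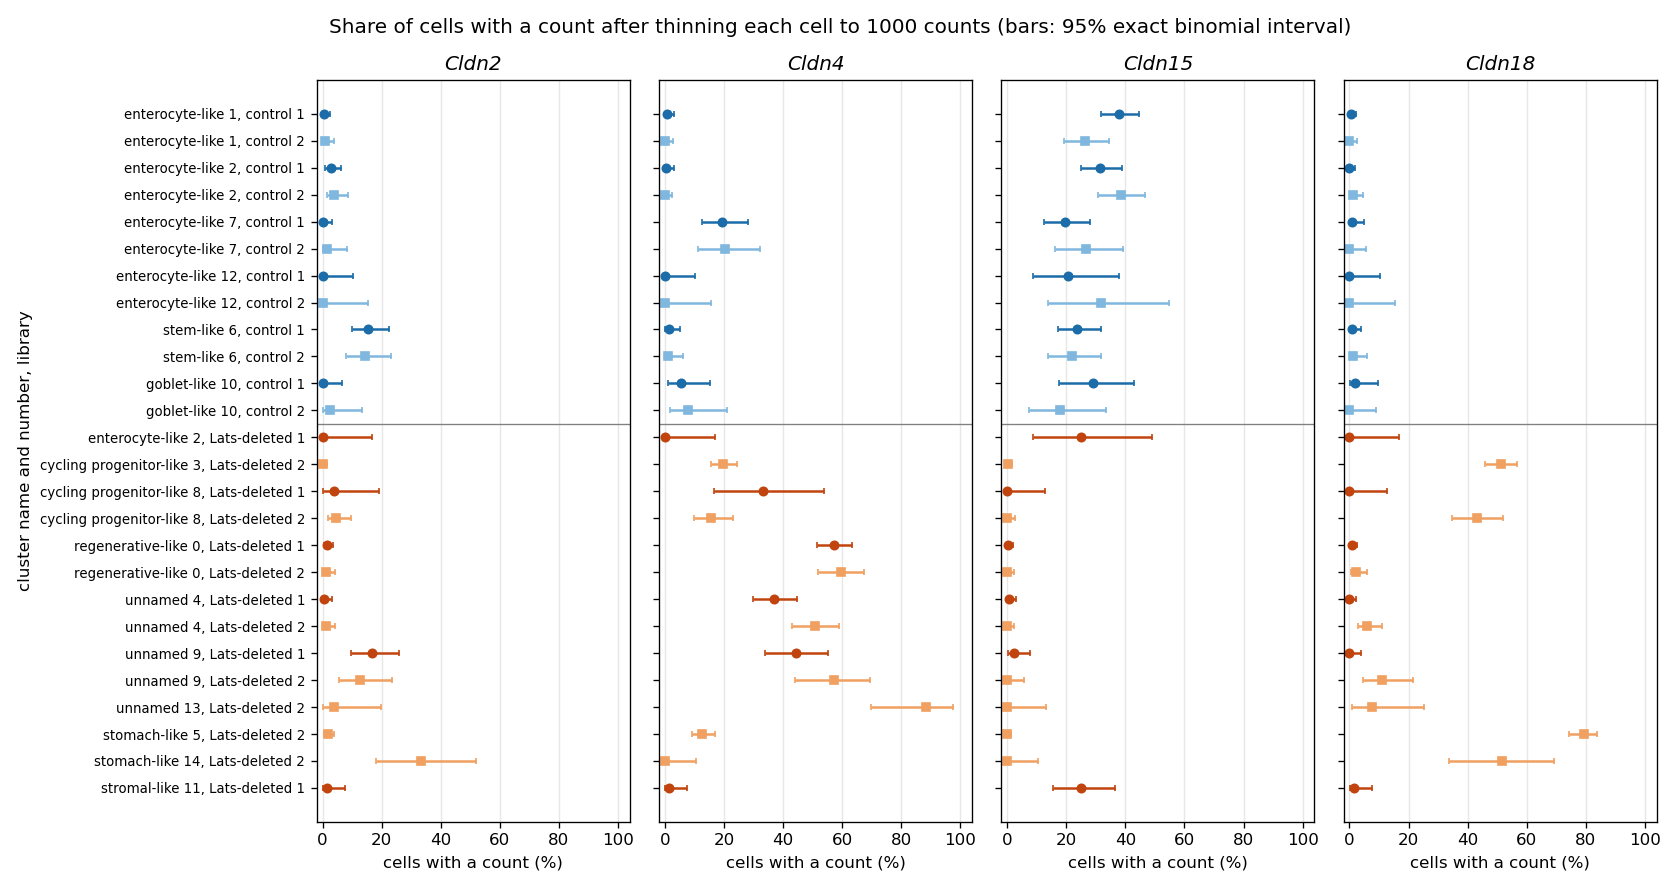
Percentage of cells with at least 1 count of Cldn2, Cldn4, Cldn15 and Cldn18 after thinning each cell to 1000 counts, by cluster and library, with 95% Clopper-Pearson intervals (counting error only); blue is control and orange Lats-deleted. Cldn4 reaches 57.3% and 59.8% in the regenerative-like cluster, Cldn2 is highest in the control stem-like cluster, the unnamed cluster 9 and the stomach-like cluster 14, and Cldn18 is high in clusters of Lats-deleted 2 alone.

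After thinning, Cldn4 was seen in 57.3% (51.3 to 63.2) and 59.8% (52.0 to 67.2) of regenerative-like cells. The stromal-like cells of Lats-deleted 1 had 1.39% (0.04 to 7.50). Their median depths before thinning were 6563 and 5700 counts for the regenerative-like cells and 2418 for the stromal-like cells. In the control stem-like cluster the Cldn4 shares were 1.4% and 1.1%.

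Cldn2 marked the crypt in the controls. The stem-like cluster had 171 and 243 CPM, whereas the enterocyte-like cluster 1 (Pck1, Lct) had 2.17 and 13.3 CPM and the enterocyte-like cluster 2 (Anpep, Fabp1, Reg1) had 32.9 and 77.3 CPM. In the Lats-deleted libraries Cldn2 was concentrated elsewhere: cluster 9 had 218 and 192 CPM, the stomach-like cluster 14 had 642 CPM, and the regenerative-like cluster 0 had 7.80 and 5.79 CPM. Cluster 9 held 98 of the 132 Cldn2 counts of Lats-deleted 1. In cluster 9 Cldn2 and Cldn4 were found in the same cells: of the 43 cells of Lats-deleted 1 with a Cldn2 count, 79.1% also had a Cldn4 count, against 85.1% of those without, and in Lats-deleted 2 it was 79.2% of 24 cells against 87.2%. In the control stem-like cluster 1 of the 32 Cldn2-positive cells of control 1 and none of the 22 of control 2 held Cldn4.

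Cldn3 was even across the control clusters, at 276 to 598 CPM, and lay at 313 to 609 CPM in the epithelial sums of Lats-deleted 1 and in clusters 0, 4 and 9 of Lats-deleted 2. Cldn3 reached its highest value, 1016 CPM, in the 26 cells of the unnamed cluster 13 of Lats-deleted 2. It was low in 4 clusters of Lats-deleted 2, at 93 CPM in the cycling cluster 3, 134 in the cycling cluster 8, 25.1 in the stomach-like cluster 5 and 21.4 in the stomach-like cluster 14. Those 4 sums held Cldn18 at 885, 894, 1881 and 764 CPM. Within the cycling cluster 3, 11% of the 245 cells with a Cldn18 count had a Cldn3 count, against 41.8% of those without, and within cluster 8 the shares were 7.8% of 90 cells against 54.5%. Depth was not matched between the cells compared, and the cells come from 1 library, so these shares have no replicate check.

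Outside the stromal-like cells Cldn7 ran from 300 to 2016 CPM, with its highest control values in the Apoa4-high cluster 7 (1414 and 1042 CPM) and its lowest value of all in the stomach-like cluster 14. Cldn6 was found in the regenerative-like cluster 0 at 31.2 and 27.0 CPM and in cluster 4 at 58.2 and 19 CPM, and cluster 0 gave 62.7% of the Cldn6 counts of Lats-deleted 1 and 51.9% of those of Lats-deleted 2. Cldn23 was highest in cluster 9, at 80.1 and 128 CPM, and in cluster 13 of Lats-deleted 2, at 118 CPM. Cldn12 reached at most 47.3 CPM, in cluster 0 of Lats-deleted 2, and Cldn8 at most 7.89 CPM.

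To set cells of a like position side by side, cells of the stem-like and cycling progenitor-like clusters were joined as a crypt class, with 144 and 91 control cells and 49 and 482 Lats-deleted cells. In this class Cldn2 fell, Cldn15 was lower with very few Lats-deleted counts, and Cldn4 was higher from very few control counts. The class was mostly the stem-like cluster 6 in the controls and the cycling clusters 3 and 8 in the Lats-deleted libraries, and these clusters in Lats-deleted 2 held Cldn18, so the genotype and the mix of states within the class cannot be told apart. Of 5 members tested, 3 had an adjusted p under 0.05, beside 25.2% of 4806 genes (11.4% higher and 13.8% lower). Of the 3, Cldn4 had passed the filter through the Lats-deleted libraries alone and Cldn15 through the controls alone, so both had to differ. Cldn2 was the only call not fixed in this way.

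Cldn15 stood at 459 and 371 CPM in the control crypt class against 9.90 and 3.98 CPM after deletion (log2 fold change -6.41 ± 0.43, adjusted p = 0.000194, edgeR quasi-likelihood test). Cldn2 stood at 210 and 285 CPM against 64.4 and 29.3 CPM (-2.66 ± 0.43, adjusted p = 0.00355), and Cldn4 at 16.1 and 10.8 CPM against 728 and 276 CPM (5.11 ± 0.66, adjusted p = 0.00141, same test). The groups did not overlap for the 5 members tested, Cldn3 and Cldn7 included, which is not read as a result. Over all kept cells 68.8% of all genes tested did not overlap, and the share in this class was not counted. Cldn4 had 4 and 2 counts in the control crypt cells and Cldn15 had 2 and 8 in the Lats-deleted ones, so neither p is read as support. Without Lats-deleted replicate 2, the library with Cldn18, the log2 fold changes were -5.28 for Cldn15, -1.89 for Cldn2 and 5.69 for Cldn4, from 49 Lats-deleted cells of 1 library, with the spread given by the 2 controls alone. Cldn3, at 536, 533, 515 and 117 CPM, and Cldn7, at 963, 963, 673 and 673 CPM, did not pass (adjusted p of 0.320 and 0.120, edgeR); without Lats-deleted replicate 1 Cldn3 was at -2.16, and without Lats-deleted replicate 2 at -0.025.

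**Figure D4:**
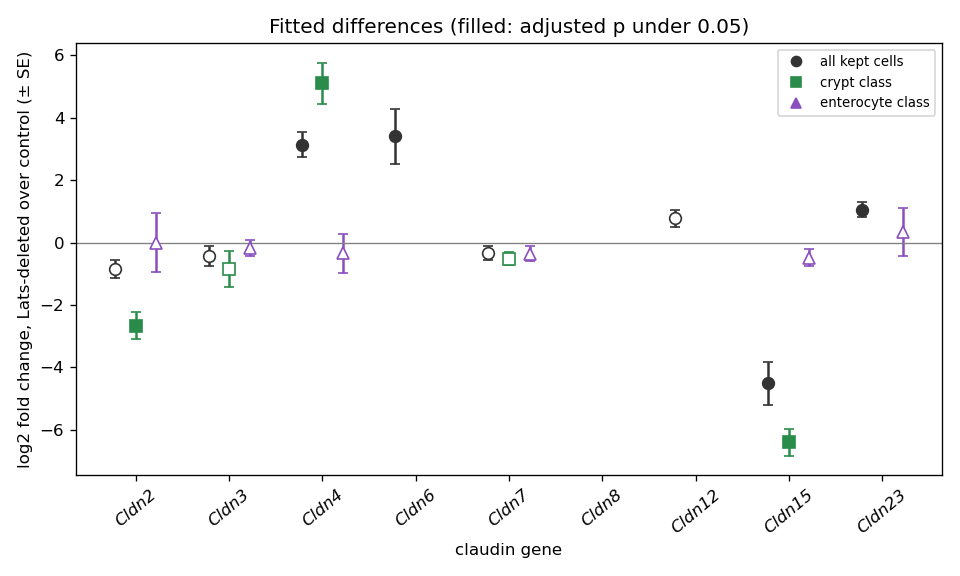
Fitted log2 fold change of Lats-deleted over control libraries for each claudin, with bars of 1 standard error, over all kept cells (circles), the crypt class (squares) and the enterocyte class (triangles). Filled symbols have an adjusted p under 0.05, and members missing from a comparison were under its filter on low counts. Cldn15 is at -4.52 and -6.41 over all cells and the crypt class and at -0.49 in the enterocyte class, where no member passed. Cldn6 over all kept cells and Cldn4 in the crypt class passed the low-count filter through the Lats-deleted libraries alone, and Cldn15 in the crypt class through the controls alone.

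In the enterocyte class no claudin passed the test. The class held 566 and 374 control cells but 36 and 21 Lats-deleted cells. Cldn15 stood at 474 and 471 CPM in the controls against 338 and 335 CPM, from 29 and 18 counts (log2 difference -0.49 ± 0.27, adjusted p = 0.711, edgeR quasi-likelihood test). Cldn4 stood at 116 and 42.6 CPM against 93.3 and 18.6 CPM, and Cldn7 at 1032 and 804 against 770 and 650 CPM, a log2 difference of -0.36 ± 0.24. The Cldn4 difference (-0.35) depended on the clustering, and was -3.38 at cluster resolution 2 and -3.37 with claudin and junction genes kept (adjusted p of 0.478 and 0.231, edgeR). Of 6 members tested, 0 had an adjusted p under 0.05 and 0 an unadjusted p under 0.05, and DESeq2 also called 0, beside 0.159% of 5649 genes (0.0531% higher and 0.106% lower). At these cell numbers a difference as large as the -3.38 of Cldn4 at resolution 2 did not pass, so the 0 calls do not show that the claudins were alike.

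Whether the difference between Lats-deleted and control libraries was unlike in the 2 classes was tested in a fit with library as a block. It passed for Cldn15 (enterocyte minus crypt 5.58 ± 0.56 on the log2 scale, adjusted p = 4.26e-06) and for Cldn4 (-5.97 ± 0.67, adjusted p = 9.39e-06; edgeR quasi-likelihood test), 2 of 5 members beside 8.99% of 5640 genes (5.53% with a positive and 3.46% with a negative difference). The Cldn4 value rests on 4 and 2 control crypt counts, and the Cldn15 value on 2 and 8 Lats-deleted crypt counts. The crypt class was mostly stem-like cells in the controls and cycling cells in the Lats-deleted libraries. A response to deletion and the mix of states can therefore not be told apart. For Cldn2 the same difference was 2.27 ± 1.17 with an adjusted p of 0.257, with 1 and 3 Cldn2 counts in the Lats-deleted enterocyte cells. In the controls, the enterocyte class differed from the crypt class in 2 of the 5 members, beside 33.2% of 5640 genes (17.3% higher and 15.9% lower). Cldn2 was lower in enterocyte-like cells (-2.81 ± 0.37, adjusted p = 1.04e-05) and Cldn4 was higher (2.91 ± 0.50, adjusted p = 0.000158, edgeR). Most of the 120 and 34 Cldn4 counts of the control enterocyte class lay in cluster 7, so the Cldn4 difference is not one of all enterocyte-like clusters. Cluster 7 had 113 and 64 control cells and 10 and 1 Lats-deleted cells. The Cldn4 call was lost without control replicate 1 (adjusted p = 0.183). Cldn15 was 0.51 ± 0.23 higher in the enterocyte class, with an adjusted p of 0.0968.

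Across the 26 cluster and library sums of at least 20 cells, Cldn4 and Cldn15 ran against each other (Pearson r = -0.78 on log2(CPM + 10)), Cldn4 ran with Cldn23 (r = 0.74) and Cldn6 (r = 0.63), Cldn3 ran with Cldn7 (r = 0.59) and against Cldn18 (r = -0.65). These sums share libraries, so the values are a description. Among 3243 genes with a mean of at least 50 CPM, those closest in pattern to Cldn15 were Maf (r = 0.94), Pxmp4 and Fmo5 (both 0.92), and those closest to Cldn4 were Phlda1 and Ehd4 (both 0.94) and Tpm1 (0.92). Cldn2 was closest to Gpx2 (0.83), Gkn3 (0.69) and Hsd17b10 (0.68). Cldn3 was closest to Cdh17 (0.86), Isx (0.82) and Muc13 (0.80), and Cldn7 to Spint1 (0.92), Onecut2 and Myh14 (both 0.91). The closest genes to Cldn23 were Ctnnd1 (0.83), Krt8 and Wdr1 (both 0.82), those to Cldn6 were Ly6c2, Ddah1 and Wnt7b (all 0.83), and those to Cldn12 were Nab1 (0.79), Mbp (0.78) and Fbxw8 (0.76).

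Promoter sequence is shown for Cldn4, which was higher in the crypt class, for Cldn2, which fell there, and for Cldn7, which passed in no comparison, as the 250 bases before the start site, from RefSeq on GRCm38.p6, 5′ to 3′ on the gene's strand. Capitals mark GGAATG or its reverse complement CATTCC, the core letters bound by the TEAD factors that recruit YAP and TAZ. The Cldn2 window is chrX:139800558-139800807 (plus strand), the Cldn7 window chr11:69964529-69964778 (plus strand) and the Cldn4 window chr5:134946935-134947184 (minus strand).
Cldn4: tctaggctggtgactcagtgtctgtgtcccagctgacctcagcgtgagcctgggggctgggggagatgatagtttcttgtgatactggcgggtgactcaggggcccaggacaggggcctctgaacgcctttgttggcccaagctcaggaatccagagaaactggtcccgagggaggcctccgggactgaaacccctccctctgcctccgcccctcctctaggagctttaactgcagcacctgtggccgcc
Cldn2: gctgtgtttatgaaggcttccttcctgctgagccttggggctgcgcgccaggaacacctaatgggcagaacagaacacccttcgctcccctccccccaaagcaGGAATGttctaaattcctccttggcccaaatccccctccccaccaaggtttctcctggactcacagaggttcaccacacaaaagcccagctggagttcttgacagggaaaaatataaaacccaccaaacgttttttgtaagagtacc
Cldn7: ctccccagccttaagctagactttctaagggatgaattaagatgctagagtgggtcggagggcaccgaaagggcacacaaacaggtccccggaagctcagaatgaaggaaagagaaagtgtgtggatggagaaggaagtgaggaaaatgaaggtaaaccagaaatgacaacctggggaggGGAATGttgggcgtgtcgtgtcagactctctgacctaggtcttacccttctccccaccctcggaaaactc
Of the 9 members, 7 had an entry, with 10 windows among them, and 3 members, Cldn2, Cldn7 and Cldn15, held the letters on either strand, at position -147 from the start site in Cldn2, -70 in Cldn7 and -237 in Cldn15. Counted by window, 3 of the 10 windows of members held them, and so did 12.6% of all 32851 RefSeq windows of this length. Cldn4 has no such letters in its window, Cldn2 and Cldn15, which fell in the crypt class, do, and so does Cldn7, which did not pass there. The Cldn15 window overlaps an annotated exon and is not printed.

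The rest of the junction was followed in 6 further gene lists over all kept cells, beside a median log2 fold change of 0.05 over all 12561 genes tested, of which 15.3% were called higher and 15.5% lower. Of the tight junction membrane proteins other than claudins, 5 of 8 tested rose and 0 fell, beside those shares, with a median of 1.17. Among the 5, Ildr2, at 1.42 and 2.64 CPM against 39.8 and 7.80 CPM, passed the low-count filter through the Lats-deleted libraries alone. Its call is not read as support. Ildr1, an angulin of tricellular corners, stood at 7.79 and 6.15 CPM in the controls against 155 and 109 CPM after deletion (log2 fold change 4.22, adjusted p = 0.000306, edgeR quasi-likelihood test). The adhesion receptors Cxadr and F11r rose by 1.45 and 1.34 on the log2 scale (adjusted p of 0.00507 and 0.00715). Of the cytoplasmic scaffold and its regulators, 6 of 13 rose and 1 fell, with a median of 0.49. Among the 6, Cgnl1, at 0 and 3.52 CPM against 16.4 and 13.6 CPM, passed the filter in the same way as Ildr2. Tjp1, which encodes the scaffold protein ZO-1, stood at 36.1 and 29.0 CPM against 212 and 174 CPM (2.56, adjusted p = 0.000593), and cingulin (Cgn) rose by 2.03. Mylk, the myosin light chain kinase that tightens the junction-bound actin ring, fell from 234 and 243 CPM to 24.4 and 11.5 CPM (-3.75, adjusted p = 0.000706).

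**Figure D5:**
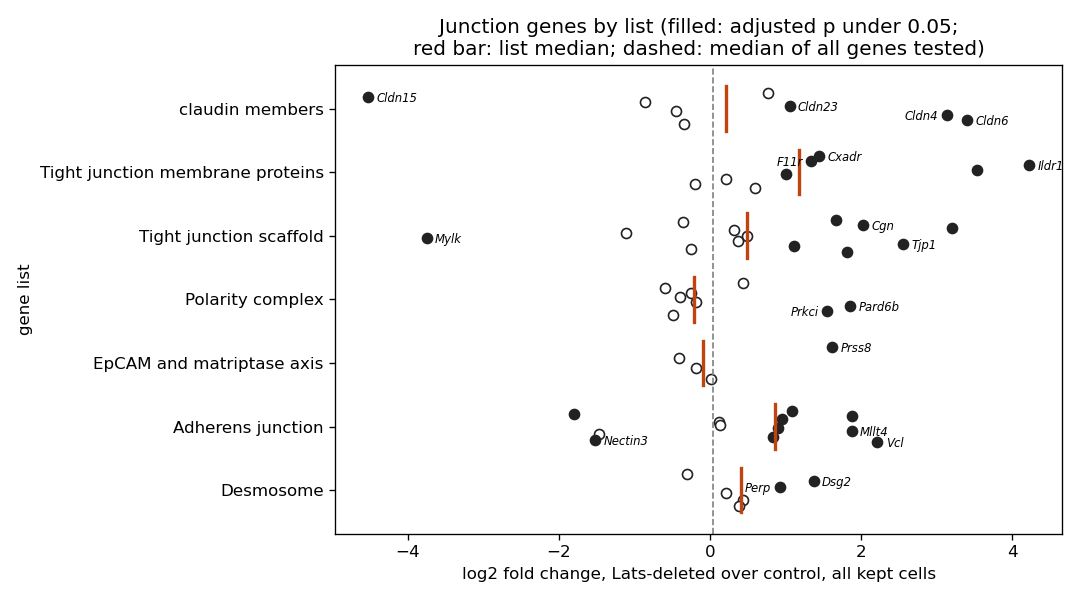
Log2 fold change (Lats-deleted over control, all kept cells) of each tested gene in the claudin set and 6 junction lists. Filled points have an adjusted p under 0.05, the red bar is the median of the list and the dashed line the median of all genes tested, 0.05. The tight junction membrane list has its median at 1.17 and the claudin set at 0.21, with members on both sides. Cldn6, Ildr2, Cgnl1 and Cdh3 passed the low-count filter through the Lats-deleted libraries alone.

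Of the apical polarity genes, 2 of 8 rose and 0 fell, beside 15.3% and 15.5% of all genes, with a median of -0.21. These were Prkci, the atypical protein kinase C of the Par complex, at 48.8 and 53.6 CPM against 146 and 153 CPM (log2 fold change 1.55, adjusted p = 0.00209), and its partner Pard6b (1.86). The scaffold gene Inadl, next by p, was at -0.59 with an adjusted p of 0.0768 (edgeR). Of the genes around EpCAM and the membrane protease matriptase, 1 of 4 rose and 0 fell, with a median of -0.086. The protease gene Prss8 rose, from 29.7 and 18.5 CPM to 80.3 and 69.5 CPM (1.62, adjusted p = 0.00626, edgeR quasi-likelihood test). The protease inhibitor gene Spint1, whose cluster pattern was the closest to that of Cldn7, was at -0.41 with an adjusted p of 0.185, and its relative Spint2 at -0.18 with an adjusted p of 0.674 (edgeR).

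Of the adherens junction genes, 7 of 12 rose and 2 fell, beside 15.3% and 15.5% of all genes, with a median of 0.87. Among the 7, Cdh3, at 2.12 and 2.64 CPM against 9.75 and 7.96 CPM, passed the low-count filter through the Lats-deleted libraries alone. Its call is not read as support. Vinculin (Vcl), which links the junction to actin under tension, stood at 51.7 and 43.1 CPM in the controls against 204 and 238 CPM (log2 fold change 2.22, adjusted p = 0.000824), and afadin, under its older symbol Mllt4, rose by 1.88. Nectin3 fell by 1.52 on the log2 scale (adjusted p = 0.0045, edgeR quasi-likelihood test). Of the desmosome genes, 2 of 6 rose and 0 fell, with a median of 0.41. These were Dsg2 (1.38) and Perp (0.93), and Pkp3 was at 0.38 with an adjusted p of 0.179. Desmoplakin was not analysed here.

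In the crypt class the tight junction membrane list had 3 of 5 higher and 0 lower, with a median of 1.43 beside 0.02 over all 4806 genes, of which 11.4% were called higher and 13.8% lower. The scaffold list had 2 of 8 higher and 2 lower (median 0.73), the polarity list 2 of 7 higher and 0 lower (0.23), and the adherens list 3 of 10 higher and 1 lower (0.45). The EpCAM and matriptase list had 0 of 4 higher and 1 lower, Spint2 (median -0.12), and the desmosome list 0 of 5 in either direction (0.36). The claudin set had 1 of 5 higher and 2 lower, with a median of -0.86, Cldn4 and Cldn15 having passed the low-count filter through 1 group alone. Mylk was at 165 and 102 CPM in the control crypt class against 9.90 and 4.48 CPM after deletion (-4.67, adjusted p = 0.001, edgeR quasi-likelihood test). It passed the low-count filter through the controls alone. Ildr1 and Pard6b, among the higher calls, passed it through the Lats-deleted libraries alone. The calls of Mylk, Ildr1 and Pard6b are not read as support. Tjp1 was at 44.3 and 53.8 CPM against 213 and 198 CPM (2.07, adjusted p = 0.0036, edgeR quasi-likelihood test). The clusters that make up this class differed between the genotypes for these genes as for the claudins.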

How the data were processed

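Single-cell RNA libraries were analysed from 2 control and 2 Lats-deleted samples. The values are whole-number counts per gene and cell barcode, as deposited by the authors, with 1 table per library. Per the submitters' processing notes, Bowtie, RSEM 1.3.0, SAMtools 1.3.1 and mm10 were used, with no role or order stated. Whether counts are of molecules or reads, and on which strand, is not given in the sources used here. Intervals therefore cover counting error only.

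The cell filter required 1000 or more counts and 300 or more genes, with mitochondrial counts of 30% or less. Library totals ran from 2247269 to 9191916 counts, and kept cells held 1228504 to 5826856 of them. Clusters came from 2000 variable genes without claudin or junction genes, with 30 principal components, 15 neighbours and Leiden resolution 1 (scanpy 1.11.5, leidenalg 0.10.2). A cluster was named from marker lists when at least 3 of them were 1.5-fold or more above the other cells and its leading genes did not go against the name. No doublet caller was run.

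Counts were summed per library, or per library and class with at least 20 cells. They were tested with edgeR 4.0.16 (quasi-likelihood, TMM, its low-count filter, Benjamini-Hochberg over all genes, threshold 0.05), after the same code was tested on simulated data. DESeq2 1.42.0 was an alternative. The other alternatives were RLE scaling, no filter, deeper cells (2000 counts), at most 15% mitochondrial counts, thinning to 1000 counts, the replicate number as a block, Leiden resolution 2, clustering with the claudin and junction genes, leaving out stomach-like and stromal-like clusters, and leaving out each library. The labels do not say whether equal replicate numbers mark paired samples. Gene positions are from GENCODE M21 (GRCm38), and 24560 of 25289 gene columns (97.1%) matched a symbol there. Promoter windows are from RefSeq. The genes named are the 9 members, other claudins of at least 20 CPM in a library, and the 3 of each junction list with the smallest p. Ildr2, Cgnl1 and Cdh3 of the junction lists are named for how they passed the low-count filter. Epcam and Dsp of these lists were not analysed here, and a further gene is not reported here and was left out of the counts and medians. The 3 closest genes to each member by pattern are also named. The members and lists were chosen with earlier results of these data known.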

Additional observations from a re-analysis of the deposited data

Results flagged for a closer look

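The Lats-deleted against control difference of Cldn15 differed between the enterocyte class and the crypt class by 5.58 on the log2 scale, and that of Cldn4 by -5.97. Both were past the threshold in the test of the difference itself (edgeR quasi-likelihood test, adjusted p of 4.26e-06 and 9.39e-06). Each direction held in both Lats-deleted libraries. The enterocyte class had 36 and 21 Lats-deleted cells. Cldn4 had 4 and 2 counts in the control crypt cells, and Cldn15 had 2 and 8 in the Lats-deleted crypt cells. The crypt class was mostly stem-like cells in the controls and cycling cells in the Lats-deleted libraries, so genotype and mix of states cannot be told apart.

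Barcodes that were not kept as cells, which enter no comparison, differed in their claudins too, in part as the kept cells did. In them Cldn4 stood at 71.7 and 43.2 CPM (of the total of those barcodes) in the controls, whereas Lats-deleted 1 had 388 and Lats-deleted 2 475 CPM. Cldn6 stood at 0.79 and 0.98 CPM, from 1 count each, against 12.8 and 7.13 CPM, from 15 and 24 counts. Cldn15 ran the other way, at 304 and 323 CPM against 61.6 and 10.4 CPM. Cldn2 and Cldn3 were turned from the kept cells: Cldn2 stood at 15.8 and 21.6 CPM in the controls against 48.8 and 45.2 CPM, and Cldn3 at 260 and 236 CPM against 286 and 338 CPM.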

How the results depend on the processing

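Of the counts of members called, most stayed within 1.5 times their main value. Over all kept cells 4 members were called. Thinning cells to 1000 counts left 2, and leaving out 1 library gave 1 to 7: 1 without control replicate 1, 2 without control replicate 2 and 7 without Lats-deleted replicate 1. Each of these fits has a group of 1 library, assumed to vary like the other group. In the controls, enterocyte against crypt class, 2 were called, with 1 to 3 when 1 library was left out. The crypt class gave 3 under every alternative run but 1 (4 without Lats-deleted replicate 1), and the enterocyte class 0 under all. Over all genes and kept cells 3869 were called, with 1228 and 1478 without control replicates 1 and 2. With the replicate number as a block the members called were 5 over all kept cells (Cldn2 was added), 3 in the crypt class and 0 in the enterocyte class. Beside them stood 4162 of 12561, 1127 of 4806 and 29 of 5649 genes. The labels do not say that equal numbers pair the libraries, and the differences of replicate 1 minus replicate 2 correlated at r = 0.073 between the groups over 12561 genes. Directions that turned were of members that had not passed. In the enterocyte class Cldn2 (-0.01) went to 0.073 with DESeq2, 0.026 with RLE and 0.092 with the block, and ranged from -1.36 to 0.80 when 1 library was left out. Cldn4 there (-0.35) went to 0.31 thinned and 0.48 with at most 15% mitochondrial counts (3 libraries), and to -3.38 at resolution 2 and -3.37 with claudin and junction genes kept in the clustering, and ranged from -2.25 to 0.14 over the fits that left out 1 library. Over the same fits Cldn23 ranged from -0.73 to 0.67 and Cldn3 from -0.57 to 0.066, and the library whose absence turned Cldn2, Cldn23 and Cldn3 was Lats-deleted replicate 1. In the controls, enterocyte against crypt class, Cldn3 was -0.19 thinned and Cldn7 ranged from -0.11 (without control replicate 1) to 0.44. For the difference of effects, Cldn7 (-0.11) was 0.011 with DESeq2 and with RLE, 0.18 thinned and 0.019 at resolution 2, and ranged from -0.41 to 0.31 with 1 library left out. Cldn2 was -2.21 thinned, and Cldn3 ranged from -0.71 without Lats-deleted replicate 2 to 1.95 without Lats-deleted replicate 1, the only one of these fits in which it passed (edgeR adjusted p = 0.000396). Without thinning, the share of cells with a count was 0.79 percentage points higher for Cldn2 and 0.86 higher for Cldn7 in the Lats-deleted libraries, where the thinned shares were lower. The cause of these turns was not tested. Not run were the crypt-class results with claudin and junction genes kept in the clustering, under which no control cluster was named as crypt, and the enterocyte class with cells of at least 2000 counts, which left too few cells. Depth limits Cldn8, Cldn6 in the controls and all members in the Lats-deleted enterocyte class.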
